A study of Mus musculus with 4 samples.

Results

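The S100 genes encode small calcium-binding proteins with paired EF-hand motifs, and 10 of them are described here in embryonic mouse skin: S100a1, S100a4, S100a6, S100a8, S100a9, S100a10, S100a11, S100a13, S100a14 and S100a16. They were chosen as probe sets whose only annotated gene symbol is one of these names, and the probe set with the highest mean over the arrays stood for each gene; all 10 were found among 19938 genes on the array. Total RNA was hybridised to 4 Affymetrix whole-transcript arrays. Ovol2 BT skin (2 arrays) came from TRE-Ovol2-Flag;K5-tTA embryos, in which a transactivator under the keratin 5 promoter, active in basal keratinocytes, drives a tagged Ovol2 transgene. Control skin (2 arrays) came from embryos with TRE-Ovol2-Flag alone or from wild type embryos, and no skin with K5-tTA alone was analysed here. All embryos were E16.5 (E, embryonic day), each array held RNA of 2 mice, and the labels name FVB/N as the strain of the Ovol2 BT embryos and CB6F1 as that of the controls. The labels also speak of littermates, which does not sit with a strain for each genotype. If the strain labels hold, genotype and strain cannot be told apart in any comparison below.

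Most S100 proteins act as dimers that change shape when calcium binds and then attach to partners such as annexins and myosin. Some are released from cells and bind receptors, as the S100a8 and S100a9 pair does in inflammation. In skin the family is tied to the keratinocyte: many S100 genes lie in the epidermal differentiation complex, where they flank the genes of the cornified envelope, and S100a8 and S100a9 are known to be induced in wounded or inflamed epidermis. Ovol2 encodes a zinc finger repressor found in epithelia, and the study set skin with added Ovol2 against skin without it to find early changes in transcripts.

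The arrays differed in ways that bear on the S100 values. Ovol2 intensity was 7799 and 7949 on the Ovol2 BT arrays, against 176 and 297 on the control arrays, so every array matched its genotype label. The epidermal markers Krt5, Krt14, Krt1 and Krt10 had log2 levels above 12.4 on every array. Of the 7 epidermal markers tested, 6 had negative differences and 0 were called in limma; Krt5 differed by -0.87 (adjusted p = 0.0597) and Krt14 by -0.66 (adjusted p = 0.432), both lower on both Ovol2 BT arrays. The part of these differences in the S100 values was not tested. Ovol2 BT replicate 2 stood apart: 893 genes lay over 2-fold below the mean of the other arrays there, against 30 to 43 on each of the other 3 arrays. All embryos are labelled female, yet the Y-linked gene Kdm5d had log2 levels of 9.70 on Ovol2 BT replicate 1 and 4.80 on Ovol2 BT replicate 2, against 9.42 on control replicate 1 and 5.76 on control replicate 2. The Y-linked signal thus lay on the replicate 1 array of both genotypes. Xist had log2 levels of 8.36 and 10.8 on Ovol2 BT replicates 1 and 2, against 7.07 and 13.2 on control replicates 1 and 2. Xist was therefore higher on the replicate 2 array of both genotypes, the reverse of the Y-linked signal, though its levels on same-numbered arrays differed. Differences within each replicate number are given below for the S100 genes that differed most.

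No S100 gene passed the test between genotypes. On the log2(intensity + 16) scale, limma with an intensity trend called a gene changed at a Benjamini-Hochberg adjusted p under 0.05, and 0 of the 8 S100 genes bright enough to be tested were called, where 0.0268% of the 14953 genes tested were (4 genes, Ovol2 among them). limma without the trend and limma with array weights also called 0 of the 8. With 2 arrays a group, a missed threshold does not show that levels were alike. S100a8 and S100a9 lay just under the filter on dim genes, a mean log2 level of 7.32, and were left out of that test. At an unadjusted limma p under 0.05 stood 1 of the 8, S100a1, where 4.23% of all genes tested did so. That count was 0 with the replicate number as a block and 0 without either control array. Differences ran from -0.10 for S100a10 to 0.64 for S100a1, with a median of 0.13 over the 8 genes, beside 0.03 over all genes tested. Positive differences were found for 7 of the 8, beside 54.4% of all genes tested. With whole skin, more cells of a type and more RNA per cell cannot be told apart.

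**Figure D1:**
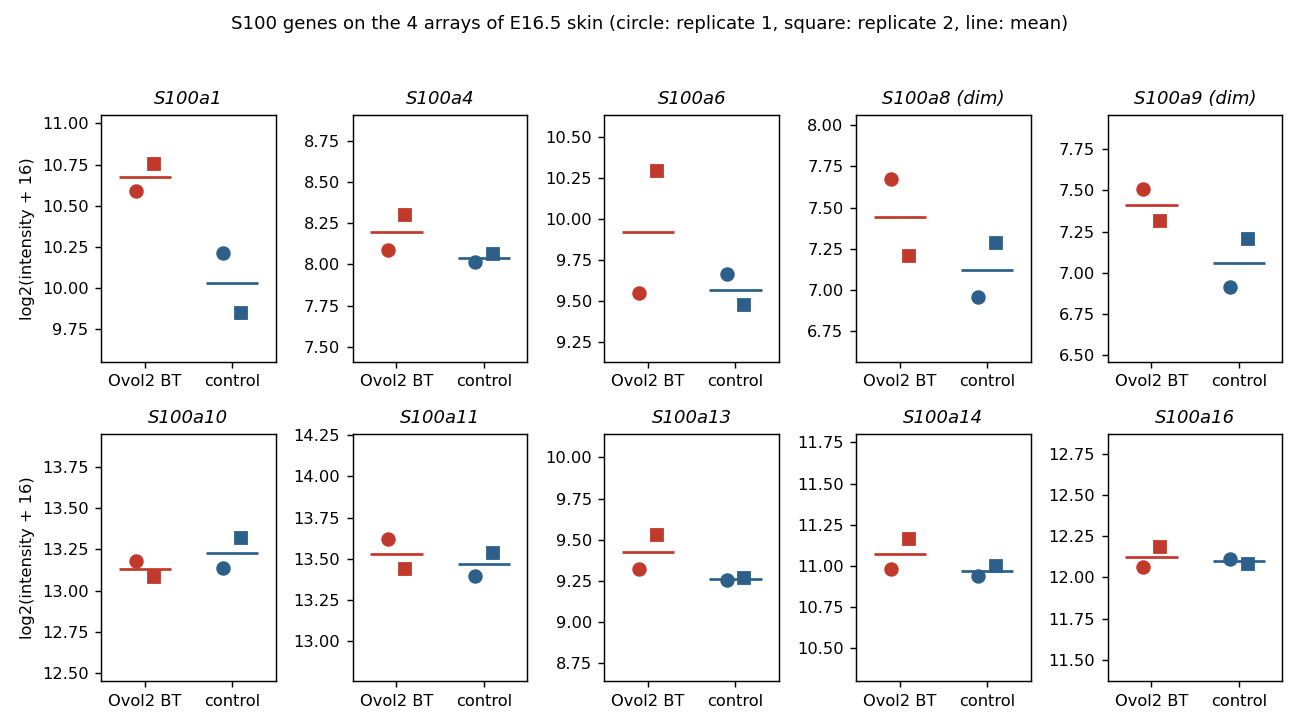
Log2(intensity + 16) of the 10 S100 genes on each array, Ovol2 BT left (red) and control right (blue), with circles for replicate 1, squares for replicate 2 and lines for group means; every panel spans the same log2 range, and levels of different genes cannot be compared. Both Ovol2 BT points lie above both control points for S100a1, S100a4, S100a9 and S100a13, and the Ovol2 BT points of S100a6 lie 0.74 apart.

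S100a1, which regulates calcium handling and contraction in heart and skeletal muscle, had the largest difference of the 8 tested. Its intensity was 1527 and 1709.5 on Ovol2 BT replicates 1 and 2, against 1173 and 907 on control replicates 1 and 2. Both Ovol2 BT arrays read above both control arrays, with a gap of 0.38 on the log2 scale between the nearest arrays, about as wide as the 0.36 between the control arrays. The mean log2 level was 10.67 ± 0.11 in Ovol2 BT skin and 10.03 ± 0.26 in control skin (SD, n = 2 arrays each). The difference was 0.64 (SE 0.21, 95% interval 0.12 to 1.16, limma adjusted p = 0.906), a ratio of 1.56. It was 0.38 between the replicate 1 arrays and 0.90 between the replicate 2 arrays. Without Ovol2 BT replicate 1 the difference was 0.72 (limma adjusted p = 0.0317), but 16.4% of all genes passed in that fit, in which 1 array stands for Ovol2 BT skin.

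Muscle content varied between arrays of one genotype, and the part it had in the S100a1 values was not tested. The summed intensity of 10 muscle markers was 24094 and 47052 on Ovol2 BT replicates 1 and 2, against 44440 and 25137 on control replicates 1 and 2, so it was high on Ovol2 BT replicate 2 and control replicate 1. Within each genotype S100a1 was higher on the array with more muscle signal. Between genotypes S100a1 differed by 0.74 across the arrays low in muscle markers (Ovol2 BT replicate 1 minus control replicate 2). It differed by 0.54 across the arrays high in them (Ovol2 BT replicate 2 minus control replicate 1). Each pair set an array with high Y-linked signal against an array with low Y-linked signal, so the arrays of a pair also differed in that. Of the 9 muscle markers tested, 0 passed in limma at an adjusted or an unadjusted p under 0.05, and 5 had positive and 4 negative differences.

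**Figure D2:**
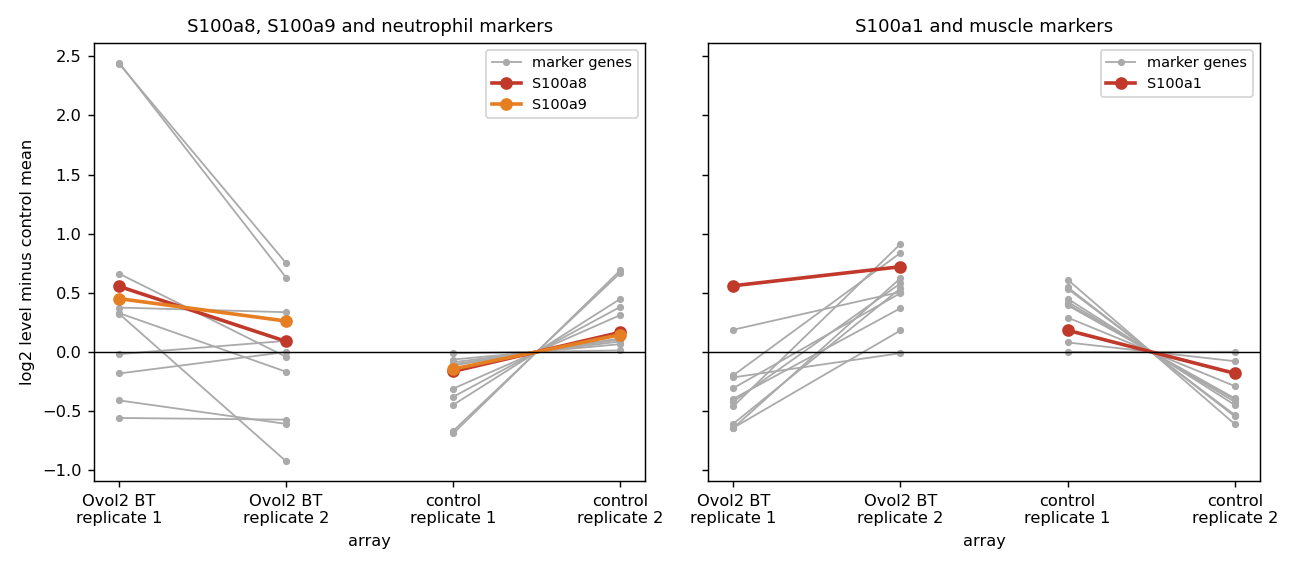
Log2 level minus the control mean on each array, with marker genes in grey: S100a8 and S100a9 with 10 neutrophil markers (left), and S100a1 with 10 muscle markers (right). The 2 neutrophil markers that reach 2.44 and 2.45 on Ovol2 BT replicate 1 are Lcn2 and Ngp; S100a1 is at 0.56 and 0.72 on the Ovol2 BT arrays, while most muscle markers are below 0 on Ovol2 BT replicate 1.

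S100a13, which takes part in the release of the growth factor Fgf1, is the neighbour of S100a1 and is read in the opposite direction. RefSeq (GRCm38.p6) places the starts of the pair 105 bases apart, so the 300-base window of S100a1 (250 bases before its start and 50 from the start on) shares 204 bases with that of S100a13. The window of S100a1 (chr3:90514281-90514580, minus strand) is shown because the shared stretch, in capitals, lies in the windows of both genes:
S100a1: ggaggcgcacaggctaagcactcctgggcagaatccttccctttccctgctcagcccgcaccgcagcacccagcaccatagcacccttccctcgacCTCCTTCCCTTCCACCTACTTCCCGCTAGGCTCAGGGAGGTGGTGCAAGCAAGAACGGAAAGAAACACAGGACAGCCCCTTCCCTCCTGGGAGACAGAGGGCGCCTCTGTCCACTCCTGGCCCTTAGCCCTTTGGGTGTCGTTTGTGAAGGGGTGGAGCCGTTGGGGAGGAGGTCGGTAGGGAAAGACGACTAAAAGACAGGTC
S100a13 intensity was 624 and 723 on the Ovol2 BT arrays, against 595 and 599.6 on the control arrays. The Ovol2 BT arrays read above both controls, but the gap between the nearest arrays was 0.06 on the log2 scale, less than the 0.21 between the Ovol2 BT arrays. The difference was 0.17 (SE 0.19, 95% interval -0.31 to 0.64, limma adjusted p = 0.910), and between 0.06 and 0.27 with each array left out in turn. Differences of this pair were both positive, and whether they differ from each other was not tested.

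S100a8 and S100a9, the subunits of calprotectin, were dim in this skin. S100a8 intensity was 188 and 132 on Ovol2 BT replicates 1 and 2, against 108 and 139.8 on control replicates 1 and 2. The groups overlapped for S100a8, since control replicate 2 read above Ovol2 BT replicate 2. S100a9 intensity was 166 and 143 on the Ovol2 BT arrays, against 104 and 131 on the control arrays. For S100a9 both Ovol2 BT arrays read above both controls, by 0.11 on the log2 scale at the nearest, while the control arrays lay 0.29 apart.

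In a fit without the filter on dim genes, S100a8 differed by 0.32 (95% interval -0.23 to 0.87) and S100a9 by 0.36 (95% interval -0.08 to 0.79), both at a limma adjusted p of 0.924. The S100a8 difference was 0.72 between the replicate 1 arrays and -0.08 between the replicate 2 arrays, and that of S100a9 was 0.60 and 0.11. Without Ovol2 BT replicate 1, S100a8 differed by 0.09 and S100a9 by 0.26. Both genes thus read highest on Ovol2 BT replicate 1 and lowest on control replicate 1.

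The neutrophil markers did not all follow the same arrays. Their summed intensity over 10 genes was 3093 and 1554 on Ovol2 BT replicates 1 and 2, against 1183 and 1781 on control replicates 1 and 2. Most of the excess on Ovol2 BT replicate 1 came from Lcn2, a siderophore-binding protein of neutrophils that keratinocytes can also make, at 1419 and 429 on the Ovol2 BT arrays, against 187 and 329 on the control arrays. Ngp, a neutrophil granule protein, read 519 and 136 on the Ovol2 BT arrays, against 45.7 and 139.97 on the control arrays. Lcn2 and Ngp differed by 1.59 and 1.54, beside a median of 0.06 over the 10 markers. The defining neutrophil genes Ly6g, Mpo and Elane lay under the filter on dim genes, with differences of -0.30, -0.09 and -0.51. Of the rest, Cxcr2 differed by -0.57, Camp by 0.04, Csf3r by 0.08, Ltf by 0.31 and Retnlg by 0.35. Of 10 markers, 4 were tested, and Lcn2 alone had an unadjusted limma p under 0.05 (adjusted p = 0.906). The part of neutrophils in the S100a8 and S100a9 values was not tested.

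The windows of S100a8 (chr3:90668821-90669120, plus strand) and S100a9 (chr3:90695672-90695971, minus strand) are shown because the 2 genes are neighbours that read highest and lowest on the same arrays; capitals mark TATAAA, the core of the TATA box, which begins 30 bases before the RefSeq start of S100a8 and at base 1 from the start of S100a9:
S100a8: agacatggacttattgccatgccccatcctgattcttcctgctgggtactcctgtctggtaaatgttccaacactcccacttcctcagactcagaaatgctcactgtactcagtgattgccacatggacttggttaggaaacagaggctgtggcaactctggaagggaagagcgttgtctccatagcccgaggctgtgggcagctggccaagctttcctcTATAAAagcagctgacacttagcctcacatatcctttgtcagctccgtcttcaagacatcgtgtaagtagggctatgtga
S100a9: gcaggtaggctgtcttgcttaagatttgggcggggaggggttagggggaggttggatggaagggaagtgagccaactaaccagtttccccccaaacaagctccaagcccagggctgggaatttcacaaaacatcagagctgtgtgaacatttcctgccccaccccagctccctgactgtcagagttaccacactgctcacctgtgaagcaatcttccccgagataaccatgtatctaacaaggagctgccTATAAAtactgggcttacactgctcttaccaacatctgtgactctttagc
At S100a9 the match lies at the annotated start, not ahead of it as at S100a8, and letters alone do not show a TATA box. TATAAA was chosen after the sequences were read. On either strand it was in 3 of the 9 windows of the 8 S100 genes that have one (S100a4, S100a8 and S100a9), and in 13.6% of 32851 RefSeq promoter windows.

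S100a6 (calcyclin), which binds the ubiquitin ligase adaptor Cacybp and annexins, depended on a single array. Its intensity was 732 and 1235 on Ovol2 BT replicates 1 and 2, against 796 and 696 on control replicates 1 and 2. Ovol2 BT replicate 1 lay between the controls and Ovol2 BT replicate 2 above them, so the groups overlapped. The difference was 0.35 (SE 0.29, 95% interval -0.39 to 1.08, limma adjusted p = 0.906). Without Ovol2 BT replicate 2, the array that stood apart, it was -0.024, and without Ovol2 BT replicate 1 it was 0.72 (limma adjusted p = 0.0217, in the same fit that passed 16.4% of all genes). It was -0.12 between the replicate 1 arrays and 0.81 between the replicate 2 arrays.

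S100a4, also called fibroblast-specific protein and a binder of non-muscle myosin, read 256 and 299 on the Ovol2 BT arrays, against 243 and 252 on the control arrays. The groups did not overlap, but the nearest arrays were 0.02 apart on the log2 scale, and the Ovol2 BT arrays 0.21. The difference was 0.15 (SE 0.16, 95% interval -0.26 to 0.57, limma adjusted p = 0.907). It was 0.05 without Ovol2 BT replicate 2 and 0.26 without Ovol2 BT replicate 1. The 8 dermal fibroblast markers had a median difference of -0.02, with 4 positive and 4 negative, and 0 of them had an unadjusted limma p under 0.05.

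**Figure D3:**
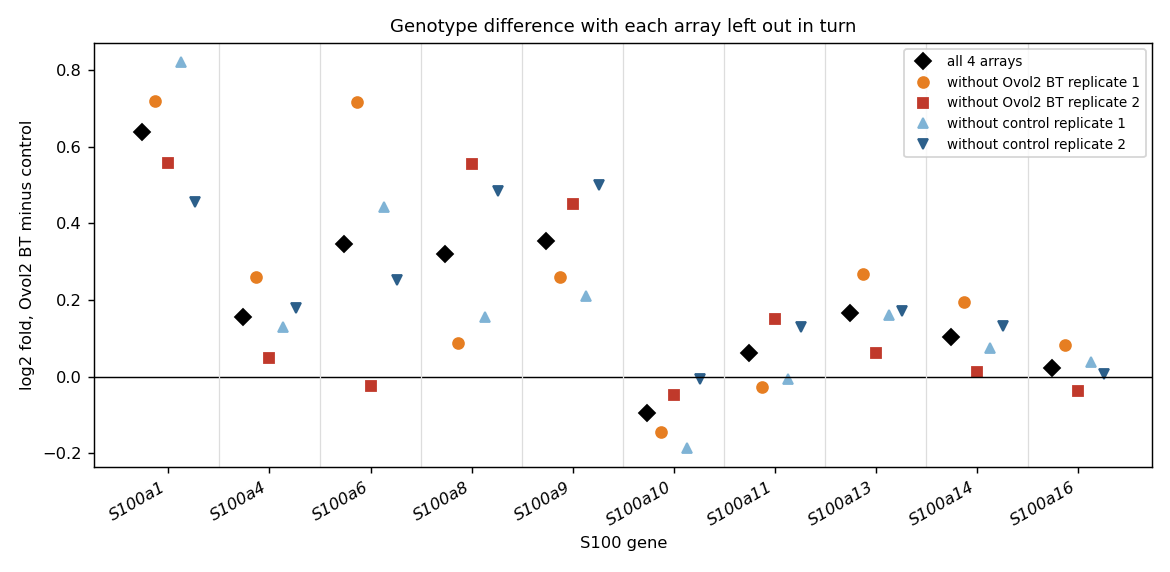
Log2 difference, Ovol2 BT minus control, of the 10 S100 genes over all 4 arrays (black diamonds) and with each array left out in turn (coloured). S100a1 stays between 0.46 and 0.82, S100a6 spans -0.02 to 0.72, and S100a10, S100a11 and S100a16 stay within 0.19 of 0.

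Of the 8 genes tested, 3 had groups that did not overlap with Ovol2 BT higher (S100a1, S100a4 and S100a13), and 0 had groups apart with Ovol2 BT lower; among all genes tested, 20.1% were apart with Ovol2 BT higher and 14.1% with Ovol2 BT lower. S100a9 had groups apart too, in the untested range. For S100a4 and S100a13 the gap between the groups was smaller than the spread within Ovol2 BT skin, and for S100a1 it was about equal to the spread within control skin.

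S100a10 and S100a11, the S100 genes of keratinocyte membranes and envelope, had small differences between genotypes. Their intervals were the narrowest of the family in the fit with an intensity trend. Without the trend, limma gave an SE of 0.16 for both, as for S100a4 and S100a13. Whether levels were alike was not tested. S100a10, the partner of annexin A2 that has lost calcium binding, had intensities of 9272 and 8667 on the Ovol2 BT arrays, against 8998 and 10198 on the control arrays. It was the only tested S100 gene with a negative difference, -0.10 (SE 0.09, 95% interval -0.32 to 0.13, limma adjusted p = 0.906), and its groups overlapped. S100a11, a partner of annexin A1 that is found in the cornified envelope, read 12558 and 11095 on the Ovol2 BT arrays, against 10781 and 11865 on the control arrays. Its groups overlapped, and it differed by 0.06 (SE 0.09, 95% interval -0.16 to 0.28, limma adjusted p = 0.925). It was the single S100 gene of the 10 with 2 probe sets. The dimmer one, at 11993 and 10590 on the Ovol2 BT arrays, against 10026 and 11410 on the control arrays, gave 0.08. The identifier of the brighter one lies outside the run of the other S100 probe sets, and its locus was not examined.

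S100a14 and S100a16, which are expressed in many epithelia, also had small differences, with a wider interval for S100a14. S100a14 intensity was 2004 and 2278 on the Ovol2 BT arrays, against 1948 and 2028 on the control arrays. Ovol2 BT replicate 1 lay between the controls, and the difference was 0.10 (SE 0.16, 95% interval -0.30 to 0.51, limma adjusted p = 0.929); with each array left out in turn it ranged from 0.01 to 0.20. S100a16 intensity was 4255 and 4630.5 on the Ovol2 BT arrays, against 4417 and 4321 on the control arrays. Here Ovol2 BT replicate 1 lay below both controls and replicate 2 above them, and the difference was 0.02 (SE 0.11, 95% interval -0.25 to 0.30, limma adjusted p = 0.974). In the fit reported, the intervals of S100a10, S100a11 and S100a16 leave out a log2 change of 0.32 or more in either direction. That of S100a14 reaches 0.51, and those of S100a1 and S100a6 reach above 1. limma without the intensity trend gave larger SEs for S100a10, S100a11 and S100a16 (0.16, 0.16 and 0.15), so the limit of 0.32 rests on the trend.

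The window of S100a11 (chr3:93520246-93520545, plus strand) is shown because it alone of the 9 windows of these genes held TGANTCA more than once. TGANTCA is a loose form of the AP-1 site. Capitals mark the matches, both TGAGTCA, which begin 136 and 38 bases before the start:
S100a11: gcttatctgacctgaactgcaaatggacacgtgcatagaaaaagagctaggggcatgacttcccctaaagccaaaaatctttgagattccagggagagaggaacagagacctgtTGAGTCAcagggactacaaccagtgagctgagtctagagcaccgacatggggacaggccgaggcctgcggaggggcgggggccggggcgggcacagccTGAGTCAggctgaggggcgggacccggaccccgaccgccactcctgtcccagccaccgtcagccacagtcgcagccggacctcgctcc
Both strands were searched. TGANTCA was in the windows of 2 of the 8 S100 genes that have one, S100a11 and S100a16, and in 7.81% of all promoter windows. CCGTTA, the core of Ovo family sites, was in 0 of the 9 windows of these 8 genes and in 2.76% of all windows. S100a10 and S100a14 had no entry. A match describes letters in the window, and no search bears on binding.

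In the RefSeq order (GRCm38.p6), all 10 genes lie on chromosome 3. S100a1, S100a13, S100a14, S100a16, S100a4, S100a6, S100a8 and S100a9 follow each other in that order, with no protein-coding gene between them other than S100a2, S100a3, S100a5 and S100a7a. S100a11 and S100a10 are adjacent to each other on the far side of the cornified envelope genes of the complex. Along the order, differences went from 0.64 (S100a1) to 0.02 (S100a16) over 4 adjacent genes and took no steady course after that. S100a3 (0.66) lay beside S100a2 (0.02), and S100a7a (0.72) between S100a6 (0.35) and S100a8 (0.32).

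**Figure D4:**
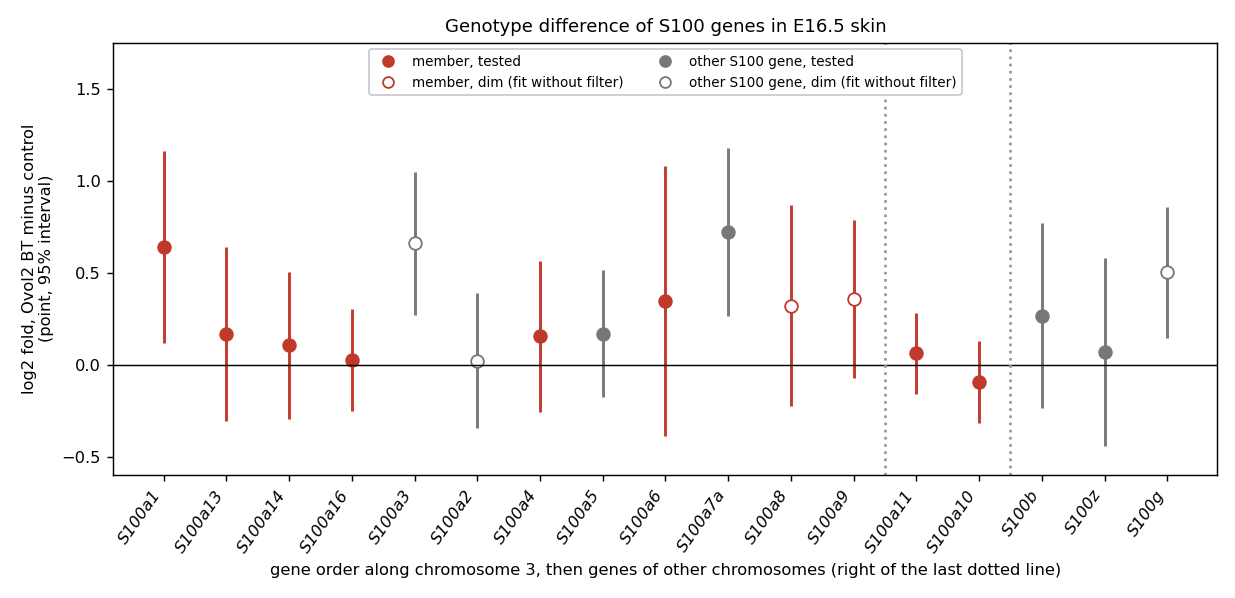
Log2 difference, Ovol2 BT minus control, with 95% interval for 17 S100 genes in their order on chromosome 3 (the first dotted line marks the cornified envelope genes between S100a9 and S100a11) and, right of the last dotted line, on other chromosomes. The 10 genes described are red and other S100 genes grey; open points are dim genes, from the fit without filter. S100a10 alone lies below 0, and the intervals of S100a1, S100a3, S100a7a and S100g lie above 0 before adjustment. An interval clear of 0 means an unadjusted limma p under 0.05. That held for 4.23% of all genes tested and, without the filter, for 816 of 19938 genes.

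The other S100 genes on the array were measured the same way. Of 8 listed, 7 were on the array with a gene symbol of their own and 4 were bright enough to be tested; 0 passed in limma and 1 had an unadjusted p under 0.05. That gene was S100a7a, the mouse relative of human psoriasin, which lies beside S100a8. Its intensity was 634 and 550.4 on the Ovol2 BT arrays, against 355 and 349 on the control arrays. The Ovol2 BT arrays read above both controls, and the difference was 0.72 (SE 0.18, 95% interval 0.27 to 1.18, limma adjusted p = 0.777). It was between 0.62 and 0.82 with each array left out in turn. Among the dim ones, S100a3, a protein of the hair cuticle, read 114 and 130.1 on the Ovol2 BT arrays, against 66.5 and 75.9 on the control arrays, a difference of 0.66 (limma adjusted p = 0.844 in the fit without filter). S100g (calbindin-D9k), an intestinal and uterine calcium carrier, read 139 and 127 on the Ovol2 BT arrays, against 89.4 and 88.4 on the control arrays, a difference of 0.50 (limma adjusted p = 0.924 in that fit).

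Fused-type S100 genes, whose proteins carry an S100 domain ahead of long repeats, include filaggrin and its relatives. Of 7 listed, 6 were on the array with a symbol of their own, 3 were tested, 0 passed in limma and 1 had an unadjusted p under 0.05. That gene was Flg2, with intensities of 1365 and 1399 on the Ovol2 BT arrays, against 922 and 303 on the control arrays. Its difference of 1.35 (SE 0.50, limma adjusted p = 0.906) rested in part on 1 array, being 0.58 when control replicate 2 was left out. Hrnr (hornerin) differed by 0.06 (SE 0.09).

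The binding partners and receptors of S100 proteins were read gene by gene, and neither list was tested as a group. Of 10 annexins and other partners, 9 were tested and limma called 0, none of them below an unadjusted p of 0.05. Differences were positive for 4 and negative for 5, with a median of -0.12. Groups were apart with Ovol2 BT lower for 3 of the 9 and higher for 1, beside 14.1% and 20.1% of all genes tested. Anxa1, the partner of S100a11 and an inhibitor of inflammation, read 2373 and 1029 on the Ovol2 BT arrays, against 2938 and 2980.5 on the control arrays. Both Ovol2 BT arrays lay below the controls, with a difference of -0.91 (SE 0.39, limma adjusted p = 0.906) that was -0.32 without Ovol2 BT replicate 2. Anxa2, the partner of S100a10, differed by -0.12 (SE 0.13). Fgf1, the cargo of S100a13, read 453 and 522 on the Ovol2 BT arrays, against 441 and 38.8 on the control arrays. Its difference of 1.67 (SE 0.94, limma adjusted p = 0.906) was 0.14 without control replicate 2. Of 8 receptors, 7 were tested and limma called 0, again none below an unadjusted p of 0.05, with a median difference of 0.06. The scavenger receptor Cd36 differed by -0.65 and the adhesion molecule Alcam by -0.61, values that were 0.15 and -0.17 once Ovol2 BT replicate 2 was left out.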

How the data were processed

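The authors deposited 1 intensity per probe set and array on a linear scale, made with Affymetrix Expression Console 1.1.1 and PLIER 2.0, per the submitters' processing notes. How arrays were scaled to each other, and the genome build, is not given in the sources used here. Of 35557 probe sets, 21789 had 1 gene symbol, updated to RefSeq by Entrez number (21698 matched); 1621 with several symbols and 12147 with none were left out. Values were taken to log2(intensity + 16), which understates folds of dim genes. The brightest probe set stood for each gene. Genes under the 25th percentile of the mean were left out. limma 3.58.1 (R 4.3.3) fitted Ovol2 BT minus control with lmFit and eBayes, two-sided (degrees of freedom: 2 residual, 3.45 prior), with p-values adjusted by Benjamini-Hochberg over 14953 genes; intervals are from the moderated fit and are not adjusted. An exact permutation test of 2 against 2 arrays cannot go below p = 0.333. The number of arrays limits the precision. The steps were tested on simulated data. Genes and lists were chosen with earlier results of these data known; genes of the S100, partner and receptor lists were named at an unadjusted p under 0.05, up to 4 a list, or else the 2 largest differences, and markers of other cell types were given as counts, with names only where they bear on an S100 gene. S100a3, S100g, S100a2, Hrnr, Anxa2, Ngp, Lyz2, Cxcr2, Camp, Csf3r, Ltf and Retnlg were named after their values were seen. Promoter windows are from RefSeq (GRCm38.p6). Protein sequences were not used here. Replicate numbers recur in both genotypes, but the titles do not say that they mark a litter or day, so the fit has no block. Deviations of same-numbered arrays correlated at -0.172 across genes, which cannot show that the number carries no shared factor. Y-linked genes and Xist did follow the replicate number in both genotypes. Alternatives covered normalisation, offset, filter, variance model, probe sets, block and each array left out.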

Additional observations from a re-analysis of the deposited data

How the results depend on the processing

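Alternatives in filter, trend, array weights or block left each difference as it was, so only its side of the threshold could change there. The mean of all probe sets could alter the difference of S100a11 alone. Of 127 differences of single S100 genes refitted under alternatives, 121 kept their sign and their side of the threshold. Sign changed in 4, all with an array left out, where S100a6 ranged from -0.024 (without Ovol2 BT replicate 2) to 0.72, S100a16 from -0.038 (without Ovol2 BT replicate 2) to 0.084, and S100a11 from -0.028 (without Ovol2 BT replicate 1; -0.0074 without control replicate 1) to 0.15. S100a1 (0.72, adjusted p = 0.0317) and S100a6 (0.72, adjusted p = 0.0217) passed in limma without Ovol2 BT replicate 1, where 16.4% of all genes passed, a fit that takes the spread of the single Ovol2 BT array from the controls. With each array left out, the number of S100 genes called was 0 to 2 and that of all genes 4 to 2453, with 7 without control replicate 1, 107 without Ovol2 BT replicate 2 and 2453 without Ovol2 BT replicate 1. Over all genes, 10 were called with median centring, 9 with the replicate number as a block, and 0 with cyclic loess or without an intensity trend (673 and 601 at an unadjusted limma p under 0.05), against 4 in the fit reported; the cause was not tested. The block called 0 S100 genes and so changed no call among them, but the unadjusted limma p of S100a1, 0.0251 in the fit reported, was 0.0516 with it, 0.0682 without control replicate 1 and 0.275 without control replicate 2. A crossed pairing, added after seeing the data, called 5 genes.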

Other observations

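Signs across the family leaned one way. Of the 10 S100 genes, 9 had a positive difference over the 4 arrays, and of all 17 S100 genes on the array 16 did, beside 55.1% of all 19938 genes. Without Ovol2 BT replicate 2 these counts were 7 of 10 and 13 of 17, beside 54.1% of all genes. On the replicate 1 arrays alone they were 8 of 10 and 14 of 17, and on the replicate 2 arrays alone 7 of 10 and 13 of 17. The genes share the same 4 arrays, so the counts are a description with no test.

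Monocyte and macrophage markers, of cells that also make S100 proteins, had a median difference of 0.29 over 8 genes, beside 0.03 over all genes tested. Differences were positive for 6 of these markers and negative for 2. None passed in limma (1 at an unadjusted p under 0.05, the lysozyme gene Lyz2, with a difference of 0.63), and their summed intensity was 8489 and 9274.5 on the Ovol2 BT arrays, against 7437 and 6899 on the control arrays. Their part in the S100 values was not tested.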
